A study of Mus musculus with 6 samples.

Results

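Interferon-stimulated antiviral genes are the effector and sensor genes that cells switch on when type I interferon binds its receptor. A list of 42 mouse genes of this kind was taken by symbol from the deposited tables. A gene was kept where its mean level over the 6 libraries was at least 1 TPM (transcripts per 1e+06 transcripts, a unit that corrects for gene length and library size). All 42 were kept, of 36333 genes listed and 11551 that passed the same filter, and the lowest of them averaged 8.53 TPM. The rule itself uses symbols and mean level, not the difference between the groups. The members and the other gene lists were, however, chosen with earlier results of these data known.

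The libraries were made from polyadenylated RNA of C57BL/6 mouse macrophages, which had been grown from bone marrow for 7 days with 10 ng/mL M-CSF, the growth factor that drives macrophage development. Replated cells then received either 100 µM stearic acid, a long-chain saturated fatty acid, or an equal volume of its vehicle, ethanol, and RNA was taken after 24 h. There were 3 libraries per group. The labels do not say whether libraries came from separate animals or cultures, so p-values here reflect only how these libraries vary, and that variation may be technical. Both groups were cultured outside the animal, and the labels name no interferon or microbial stimulus.

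Type I interferons act through the receptor pair IFNAR1 and IFNAR2 and the Janus kinases JAK1 and TYK2. These kinases activate transcription factors that assemble into a complex called ISGF3, of which STAT2 and IRF9 are part. ISGF3 binds a DNA motif called the interferon-stimulated response element in the promoters of target genes. Their products detect viral nucleic acid, block viral entry, translation or release, or feed back on the pathway. Macrophages keep a low level of interferon signalling even without infection, so these genes are transcribed in resting cells.

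With stearic acid, 35 of the 42 genes fell, none rose and 7 did not pass the test (limma on log2(TPM + 1), adjusted p under 0.05 over all tested genes). Over all tested genes 24.7% passed, 11.9% as lower and 12.8% as higher. The members' median log2 fold change was -0.54, against -0.03 over all tested genes. Among those that passed, mean TPM fell by 15.2% for Oas1a, the smallest fall, and by 52.2% for Ifit3, the largest. In 36 members every stearic acid library lay below every vehicle library, a pattern seen in 21.7% of tested genes (44.6% did not overlap in either direction). At an unadjusted p under 0.05 there were 36 lower members and 0 higher ones. The count of 35 became 9 without vehicle replicate 2, 12 without vehicle replicate 3 and 22 with stearic acid replicate 3 left out. In these fits 1.44%, 1.23% and 3.64% of all tested genes passed as lower. The count was 12 when genes of low level were not filtered out, with 1.64% of tested genes lower. Because the RNA came from whole cultures, fewer cells with high levels and less RNA per cell cannot be told apart.

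**Figure D1:**
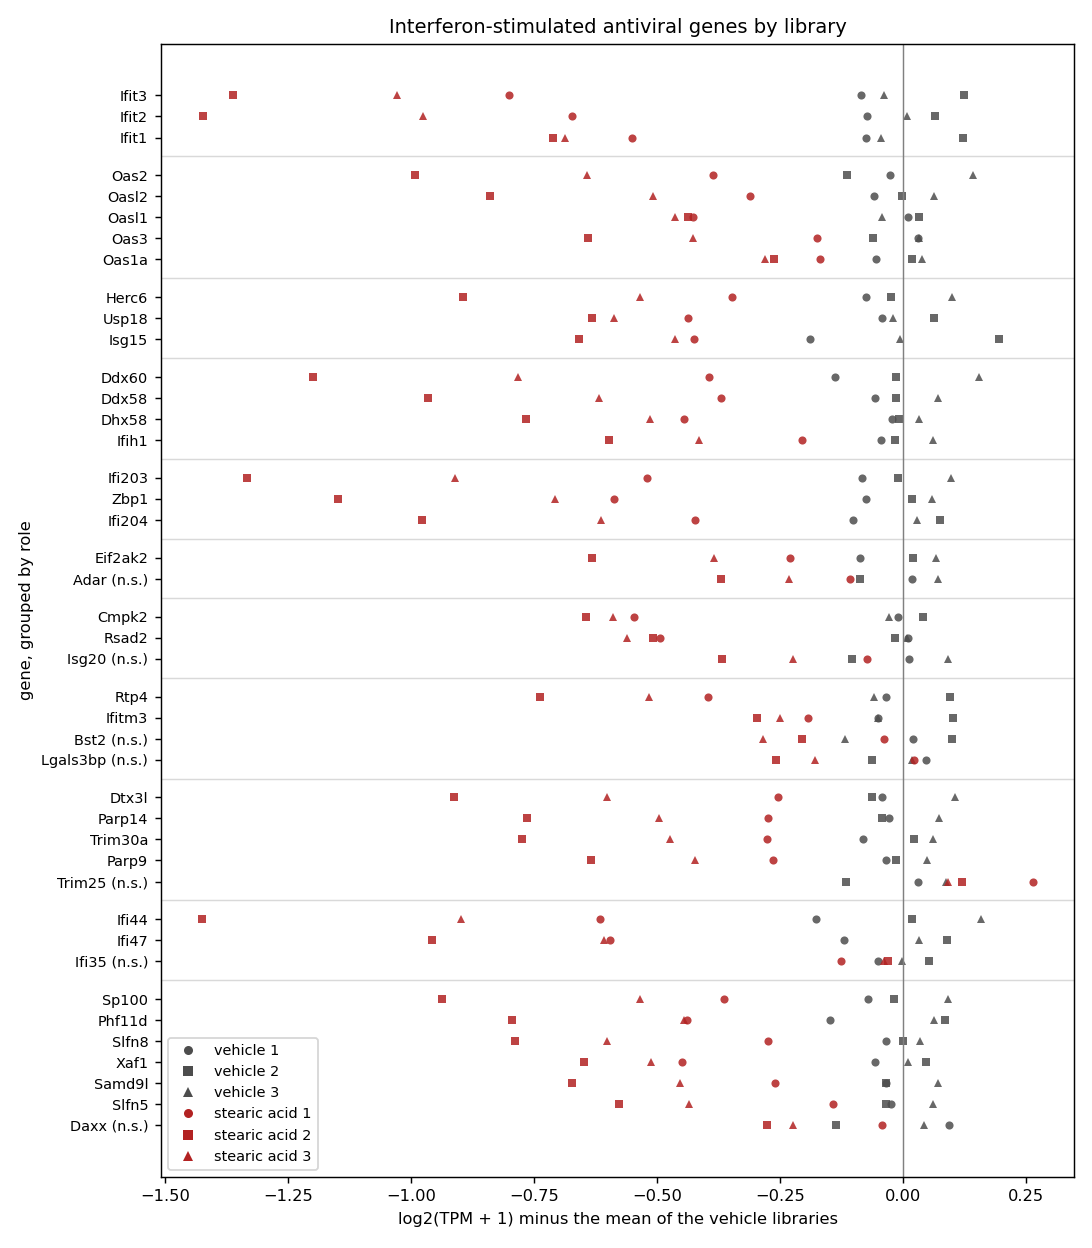
Each row is 1 of the 42 genes and each point 1 library, placed at its log2(TPM + 1) minus the mean of the 3 vehicle libraries (horizontal axis, log2 units); grey marks vehicle, red marks stearic acid, shapes mark replicates 1 to 3, and n.s. marks the 7 genes that did not pass. The red points lie left of the grey ones in 36 rows, and the red circles (stearic acid replicate 1) are nearest to vehicle in most rows.

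**Figure D2:**
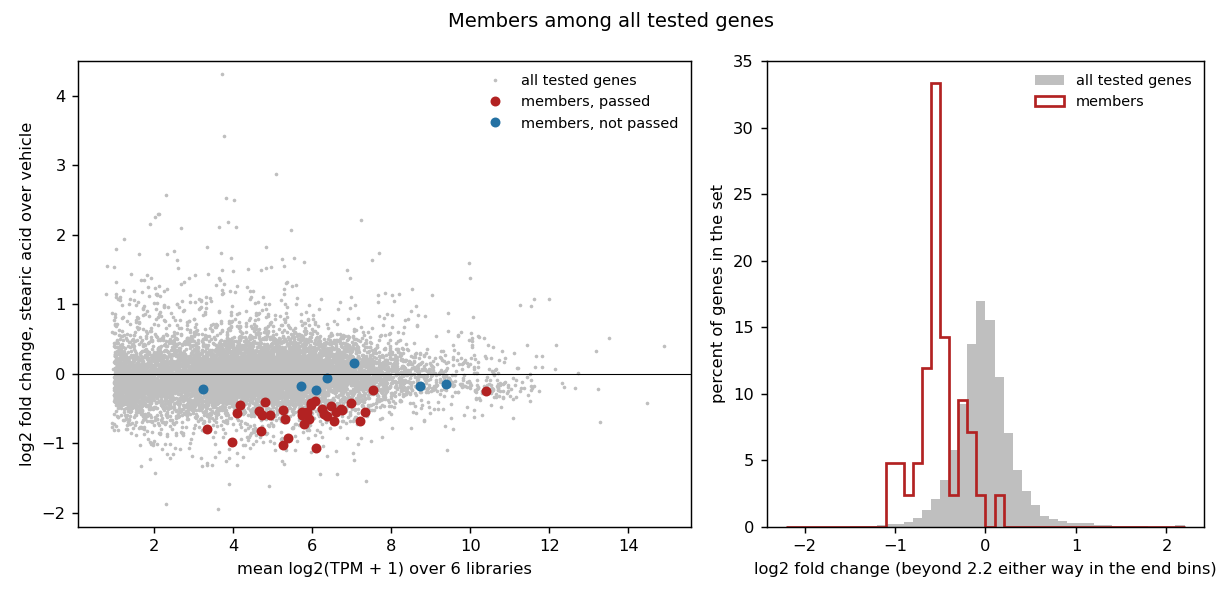
Left, log2 fold change (stearic acid over vehicle) against mean log2(TPM + 1) for the 11551 tested genes in grey, with the 35 members that passed in red and the 7 that did not in blue. Right, the share of genes at each log2 fold change; the members centre at -0.54 and all tested genes at -0.03.

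The stretch of DNA before the start of several members holds the core of the interferon-stimulated response element, and 6 such stretches are shown because they carry the motif that ISGF3 is known to bind. The core was searched on both strands as GAAA, any 2 bases and GAAA, so that a match on the opposite strand reads TTTC, any 2 bases and TTTC. Windows ran from 250 bases before to 50 after each RefSeq gene start (build GRCm38.p6), and 34 of the 42 members had one. The stretches come from the members with the largest fall in their role group whose core lies before a RefSeq start. Some genes have several such starts, and a window with a core before its start was then used. The Ifit3, Ifi203 and Ddx60 stretches lie before a start that is inside the gene's RefSeq span. The other Ifi203 window held no core. Each is given from 5′ to 3′ on the strand of the gene, with the matches in capitals.
Ifit3 (chr19:34583358-34583431, plus strand): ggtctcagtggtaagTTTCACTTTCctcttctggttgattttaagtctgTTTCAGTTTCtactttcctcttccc
Ifi203 (chr1:173942503-173942542, minus strand): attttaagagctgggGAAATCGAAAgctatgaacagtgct
Ddx60 (chr8:61928019-61928086, plus strand): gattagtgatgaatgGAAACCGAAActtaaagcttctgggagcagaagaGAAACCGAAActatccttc
Slfn8 (chr11:83020834-83020873, minus strand): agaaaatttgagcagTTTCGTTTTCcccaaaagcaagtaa
Rsad2 (chr12:26456548-26456587, minus strand): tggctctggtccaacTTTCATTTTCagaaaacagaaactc
Isg15 (chr4:156200860-156200911, minus strand): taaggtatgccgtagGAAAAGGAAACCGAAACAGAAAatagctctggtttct

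Ifit3 and Ddx60 each hold 2 cores before the start used, and Isg15 holds 3 that overlap in 1 run. Over the 34 members with a window, 16 (47.1%) held the core, against 1079 of 27025 genes with a window (3.99%) and 372 of 9335 tested genes (3.98%). The list was made of interferon-stimulated genes, the kind of target that ISGF3 binds, so this share is no result about stearic acid. Among tested genes outside the list that fell with stearic acid, 90 of 1076 (8.36%) held it. Other interferon-stimulated genes were not removed from that set, and their part in the share was not tested. Within the list the core was found in 15 of 27 members that fell and in 1 of 7 that did not pass, Bst2, which holds 2 cores that overlap. A match of these letters is a description of the window and does not show that a factor binds there. The gamma-activated site, searched as TTCNNNGAA (the same on both strands), was found in 8 of the 34 members (23.5%) and in 2582 of the 27025 genes (9.55%). It lay in 4 of the 27 members that fell and 4 of the 7 that did not pass, and it overlapped a core in 2 members.

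**Figure D3:**
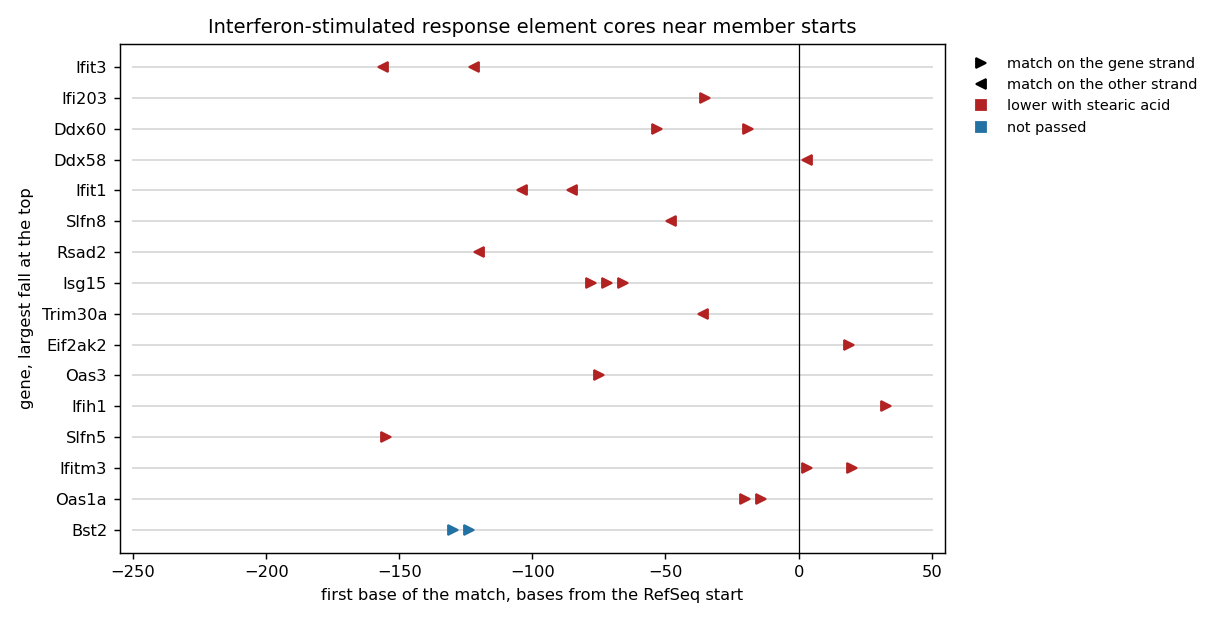
Position of each response element core (triangles) relative to the RefSeq start (horizontal axis, bases) in the 16 members that hold one, 1 window per gene, ordered by fold change with the largest fall at the top. Red marks members that fell and blue marks Bst2, which did not pass; the cores of Ifit3, the member with the largest fall, begin at -156 and -122.

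All 3 listed genes of the IFIT proteins, which bind viral RNA and block its translation, fell, and Ifit3 and Ifit2 had the largest falls of the 42 members. Ifit3 (NCBI gene 15959, chromosome 19, 34583119 to 34588982, GRCm38) stood at 92.7, 107 and 95.8 TPM in the vehicle libraries and at 56.04, 37.7 and 47.7 TPM in the stearic acid libraries. The groups did not overlap, and the highest stearic acid value was far under the lowest vehicle value. Its mean went from 98.6 ± 7.64 to 47.1 ± 9.204 TPM (SD, n = 3 per group), a log2 fold change of -1.06 (SE 0.13, limma adjusted p = 0.002). Ifit2 (gene 15958), its neighbour on chromosome 19, was at 50.5, 55.8 and 53.6 TPM in vehicle and at 33.04, 19.2 and 26.6 TPM with stearic acid (log2 -1.02, SE 0.16, limma adjusted p = 0.005). Stearic acid replicate 2 was the lowest library for both genes. The third member, Ifit1, which recognises RNA caps that lack a host methyl mark, fell by 37.05% (log2 -0.65). It varied less among the stearic acid libraries than the other two, from 29.3 to 32.9 TPM. Ifit3 has a close copy, Ifit3b, whose reads may not be separable from its own and which fell from 21.7 ± 1.91 to 9.03 ± 2.79 TPM.

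All 5 listed members of the oligoadenylate synthetase family fell. These enzymes make the short oligoadenylates that activate RNase L, which then cuts RNA, and the OAS-like proteins act in RNA sensing and its control. Oas2 (gene 246728, chromosome 5) had 116, 109 and 131 TPM in vehicle and 90.3, 58.96 and 75.5 TPM with stearic acid, and fell by 0.67 on the log2 scale (SE 0.14, limma adjusted p = 0.014). Oasl2 (gene 23962) had 185, 193 and 202 TPM in vehicle and 156, 107 and 135 TPM with stearic acid (log2 -0.55, SE 0.12, limma adjusted p = 0.015). Neither gene's groups overlapped, and in both the stearic acid values spread more widely than the vehicle values. Oas3 (log2 -0.41), Oasl1 (log2 -0.44) and Oas1a (log2 -0.24) made up the rest. Oasl1 held the narrowest range of all members in the stearic acid group, from 14.2 to 14.6 TPM, against 19.4 to 20.5 TPM in vehicle. Oas1a lies beside its close copy Oas1g, which fell from 51.8 ± 1.95 to 39.6 ± 1.88 TPM. Oas1a passed in only 1 of the 6 fits that left out a library (limma adjusted p up to 0.14).

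The 3 members that belong to the ISG15 system fell by similar amounts. Isg15 encodes a ubiquitin-like protein that is attached to other proteins, Herc6 the main ligase that attaches it in mice, and Usp18 the protease that removes it and also restrains the interferon receptor. Herc6 (gene 67138, chromosome 6) was at 30.03, 31.2 and 34.1 TPM in vehicle and at 24.7, 16.6 and 21.6 TPM with stearic acid (log2 -0.59, SE 0.13, limma adjusted p = 0.016). Usp18 (gene 24110) was at 61.6, 66.3 and 62.5 TPM in vehicle and at 46.5, 40.6 and 41.8 TPM with stearic acid (log2 -0.55, SE 0.08, limma adjusted p = 0.0029). Both this ligase and this protease were thus lower in every stearic acid library than in every vehicle library. Isg15 itself fell from 129 ± 17.3 to 89.6 ± 7.67 TPM (log2 -0.52), with the wider spread in vehicle.

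All 4 RNA helicase sensors fell. Ddx58 encodes RIG-I and Ifih1 encodes MDA5, the cytosolic detectors of viral RNA, Dhx58 their regulator LGP2, and Ddx60 a related helicase. Ddx60 (gene 234311, chromosome 8) was among the lowest members in level, with 11.01, 12.1 and 13.7 TPM in vehicle and 9.05, 4.76 and 6.69 TPM with stearic acid (log2 -0.79, SE 0.18, limma adjusted p = 0.017). Ddx58 (gene 230073, chromosome 4) had 71.4, 73.5 and 78.04 TPM in vehicle and 57.2, 37.5 and 48.1 TPM with stearic acid (log2 -0.65, SE 0.13, limma adjusted p = 0.012). In both, the first stearic acid replicate was closest to the vehicle range without reaching it. Dhx58 fell by 0.58 and Ifih1 by 0.41 on the log2 scale. Ifih1 passed in 2 of the 6 fits that left out a library and Ddx60 in 3.

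The sensors of DNA and of Z-form nucleic acid fell as well. Ifi203 and Ifi204 belong to a family of DNA-binding proteins on chromosome 1, and Zbp1 binds nucleic acid in the Z conformation and can start cell death. Ifi203 (gene 15950) was at 53.6, 56.4 and 60.9 TPM in vehicle and at 39.3, 21.96 and 29.8 TPM with stearic acid (log2 -0.92, SE 0.17, limma adjusted p = 0.0095). Zbp1 (gene 58203, chromosome 2) was at 31.8, 33.996 and 34.998 TPM in vehicle and at 22.02, 14.6 and 20.2 TPM with stearic acid (log2 -0.82, SE 0.13, limma adjusted p = 0.0059). In both genes the stearic acid range was wider than the vehicle range, and the ranges did not meet. Ifi204 fell from 186 ± 11.7 to 118 ± 22.4 TPM (log2 -0.67).

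Of the enzymes that act on double-stranded RNA, 1 of 2 passed. Eif2ak2 encodes PKR, the kinase that halts translation when it binds such RNA, and Adar edits it. Eif2ak2 (gene 19106, chromosome 17) had 67.4, 72.7 and 75.2 TPM in vehicle and 61.01, 45.9 and 54.7 TPM with stearic acid (log2 -0.42, SE 0.10, limma adjusted p = 0.023). Adar had 73.8, 68.6 and 76.7 TPM in vehicle and 67.6, 56.2 and 61.99 TPM with stearic acid. The groups for Adar did not overlap, though the nearest values were close, and the log2 fold change of -0.24 (SE 0.08) missed the threshold (limma adjusted p = 0.069). It did pass with median-of-ratios scaling (0.041), quantile normalization (0.042), the replicate number as a term of the model (0.035) and without stearic acid replicate 1 (limma adjusted p = 0.009).

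Among effectors that act on nucleotides and RNA, the neighbouring genes Cmpk2 and Rsad2 on chromosome 12 fell with little spread. Rsad2 encodes viperin, which makes a chain-terminating nucleotide, and Cmpk2 encodes a mitochondrial nucleotide kinase. Cmpk2 was at 36.5, 37.8 and 36.03 TPM in vehicle and at 24.9, 23.1 and 24.1 TPM with stearic acid. Rsad2 was at 44.9, 44.02 and 44.8 TPM in vehicle and at 31.4, 31.02 and 29.9 TPM with stearic acid. For this pair the groups did not overlap and the stearic acid libraries lay close together, with a range of 0.10 for Cmpk2 and 0.07 for Rsad2 on the log2 scale against 0.07 and 0.03 in vehicle. Cmpk2 had the smallest p of all members (limma adjusted p = 0.0014). The exonuclease gene Isg20, the lowest member in level, had 9.32, 8.52 and 9.905 TPM in vehicle and 8.72, 6.93 and 7.76 TPM with stearic acid. Its groups overlapped, and its log2 fold change of -0.22 (SE 0.10) missed the threshold (limma adjusted p = 0.13).

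Of 4 membrane and secreted proteins, 2 fell and 2 did not pass. Rtp4 (gene 67775, chromosome 16), a receptor-transporter protein with antiviral activity, had 113, 124 and 111 TPM in vehicle and 87.8, 69.03 and 80.7 TPM with stearic acid (log2 -0.55, SE 0.09, limma adjusted p = 0.007). Ifitm3 (gene 66141, chromosome 7), which blocks the fusion of viruses with endosomes, had 1422, 1579.9 and 1422 TPM in vehicle and 1289, 1198 and 1239 TPM with stearic acid (log2 -0.25, SE 0.07, limma adjusted p = 0.032). It was the most abundant member, and its fall did not pass in RPKM (0.098), with median-of-ratios scaling (0.091) or with no filter (limma adjusted p = 0.10). It passed in 1 of the 6 fits that left out a library (limma adjusted p up to 0.12). Bst2, or tetherin, which holds budding viruses at the cell surface, had 458, 485 and 416 TPM in vehicle and 439.98, 392 and 371 TPM with stearic acid, so the groups overlapped (log2 -0.18, limma adjusted p = 0.15). Lgals3bp, a secreted glycoprotein, had 728, 676 and 714 TPM in vehicle and 716, 589.9 and 623 TPM with stearic acid, and its groups overlapped too (log2 -0.14, limma adjusted p = 0.23).

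Of 5 ADP-ribosylation and ubiquitin enzymes 4 fell. PARP9 and DTX3L form a complex, PARP14 is a mono-ADP-ribosyltransferase, and TRIM25 and TRIM30A are ubiquitin ligases, TRIM25 acting on RIG-I. Dtx3l (gene 209200, chromosome 16) had 62.9, 62.1 and 69.9 TPM in vehicle and 54.2, 33.95 and 42.4 TPM with stearic acid (log2 -0.59, SE 0.15, limma adjusted p = 0.022). Its locus overlaps that of Parp9 (log2 -0.44), so reads of the pair may not be separable. Parp14 (gene 547253), on the same stretch of chromosome 16, had 87.3, 86.4 and 93.8 TPM in vehicle and 73.4, 52.03 and 62.8 TPM with stearic acid (log2 -0.51, SE 0.11, limma adjusted p = 0.017). Trim30a fell by 0.51 on the log2 scale. Trim25 was the only member with a higher mean, at 127, 115 and 132 TPM in vehicle and 149, 135 and 133 TPM with stearic acid. It did not pass in TPM (log2 0.16, SE 0.08, limma adjusted p = 0.16) and passed as higher in RPKM (limma adjusted p = 0.044).

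The remaining groups fell for the most part. Ifi44 and Ifi47, which encode proteins that bind GTP or resemble those that do, fell, and Ifi35, a leucine zipper protein, did not pass. Ifi44 (gene 99899, chromosome 3) had 18.5, 21.4 and 23.6 TPM in vehicle and 13.4, 7.22 and 10.8 TPM with stearic acid (log2 -0.98, SE 0.18, limma adjusted p = 0.0096). Ifi47 (gene 15953, chromosome 11) had 63.9, 74.1 and 71.2 TPM in vehicle and 45.7, 35.3 and 45.3 TPM with stearic acid (log2 -0.72, SE 0.11, limma adjusted p = 0.0043). Both were lower in every stearic acid library. Ifi35 had 81.1, 87.3 and 83.95 TPM in vehicle and 76.9, 82.2 and 81.8 TPM with stearic acid, with overlapping groups (log2 -0.07, SE 0.07, limma adjusted p = 0.47).

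In the growth, nuclear body and Schlafen group 6 of 7 fell, with a median log2 fold change of -0.54. Sp100 (gene 20684, chromosome 1), a component of nuclear bodies that restrain viral genomes, had 97.03, 101 and 109 TPM in vehicle and 79.1, 52.8 and 70.1 TPM with stearic acid (log2 -0.61, SE 0.13, limma adjusted p = 0.015). Phf11d (gene 219132, chromosome 14), a PHD finger protein of a multigene family, had 17.8, 21.1 and 20.8 TPM in vehicle and 14.3, 10.996 and 14.3 TPM with stearic acid (log2 -0.56, SE 0.11, limma adjusted p = 0.013). Neither gene's groups overlapped. Slfn8 (log2 -0.55) and Slfn5 (log2 -0.38) of the Schlafen family, the apoptosis-related Xaf1 (log2 -0.54) and the translation inhibitor Samd9l (log2 -0.46) were the others that fell. Slfn8 has a close copy, Slfn9, at 81.2 ± 3.65 and 60.7 ± 8.68 TPM. Daxx, a histone chaperone of the same nuclear bodies as Sp100, had 58.6, 49.8 and 56.5 TPM in vehicle and 53.2, 45.1 and 46.8 TPM with stearic acid. Its groups overlapped, and its log2 fold change of -0.18 (SE 0.09) missed the threshold (limma adjusted p = 0.16).

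**Figure D4:**
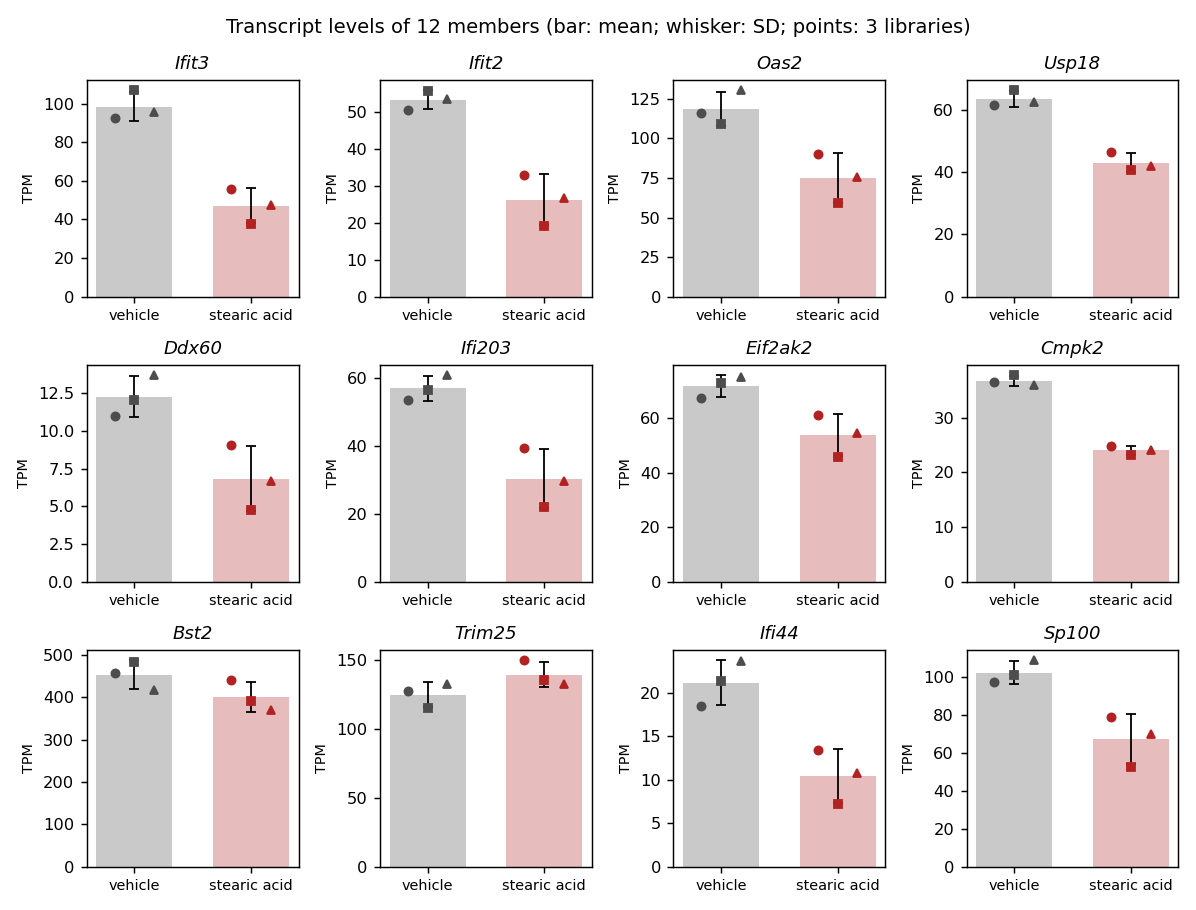
Transcript levels (vertical axis, TPM, from 0) of 12 members, at least 1 from each role group; bars are means of 3 libraries, whiskers SD, and points single libraries (circle, square and triangle for replicates 1, 2 and 3). In 10 panels all stearic acid points lie under all vehicle points. Bst2 overlaps, and for Trim25, which did not pass, the stearic acid points lie above the vehicle points.

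The level of the members in vehicle macrophages spanned from 9.25 TPM for Isg20 to 1475 TPM for Ifitm3, with a median of 72.8 TPM. After Ifitm3 came Lgals3bp (706 ± 27.2 TPM) and Bst2 (453 ± 34.4 TPM). Oas1a (199.9 ± 6.75 TPM), Oasl2 (193 ± 8.26 TPM) and Ifi204 (186 ± 11.7 TPM) followed and did not differ beyond their spread. In all, 14 members were at 100 TPM or more. The 4 members with the highest vehicle level had log2 fold changes between -0.25 (Ifitm3) and -0.14 (Lgals3bp). Across the 42 members, level in vehicle and log2 fold change had a Spearman rho of 0.32, which is across genes of the same libraries. Together the members made up 0.555% to 0.581% of each vehicle library's TPM and 0.407% to 0.490% of each stearic acid library's.

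The stearic acid libraries differed among themselves. Replicate 1 held the highest of the 3 stearic acid values in 41 of 42 members and replicate 2 the lowest in 36. The median difference from the vehicle mean was -0.36, -0.69 and -0.51 in stearic acid replicates 1, 2 and 3 on the log2 scale. Other genes that fell showed the same order, with medians of -0.27, -0.64 and -0.42 over 1339 genes and replicate 2 lowest in 94.6% of them. Over all tested genes replicate 2 was lowest in 52.5%. The spread among stearic acid libraries ranged from 0.04 for Oasl1, 0.07 for Rsad2 and 0.10 for Ifi35 and Cmpk2 to 0.81 for Ifi203 and Ifi44 and 0.80 for Ddx60, as highest minus lowest on the log2 scale. Its median over the members was 0.38, against 0.15 among vehicle libraries. Members with a larger fall also spread more (Spearman rho of spread and log2 fold change -0.65 across the 42 members). Both quantities use the same 3 stearic acid values, so they are not independent.

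Which libraries entered the fit decided many calls. Passing as lower in all 6 fits that left out 1 library were 9 members, Ifit1, Ifit3, Oasl1, Usp18, Dhx58, Rsad2, Cmpk2, Ifi47 and Xaf1, named here after their values were seen. That pattern was found in 0.857% of tested genes. The other 26 members that fell missed the threshold in at least 1 such fit, and Ifit2, Zbp1 and Rtp4 did so only without vehicle replicate 2, each with a limma adjusted p of 0.052. Without stearic acid replicate 1, the library nearest to vehicle, 40 members fell, adding Adar, Isg20, Bst2, Lgals3bp and Daxx. The median log2 fold change of the members stayed between -0.62 and -0.44 in these fits.

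**Figure D5:**
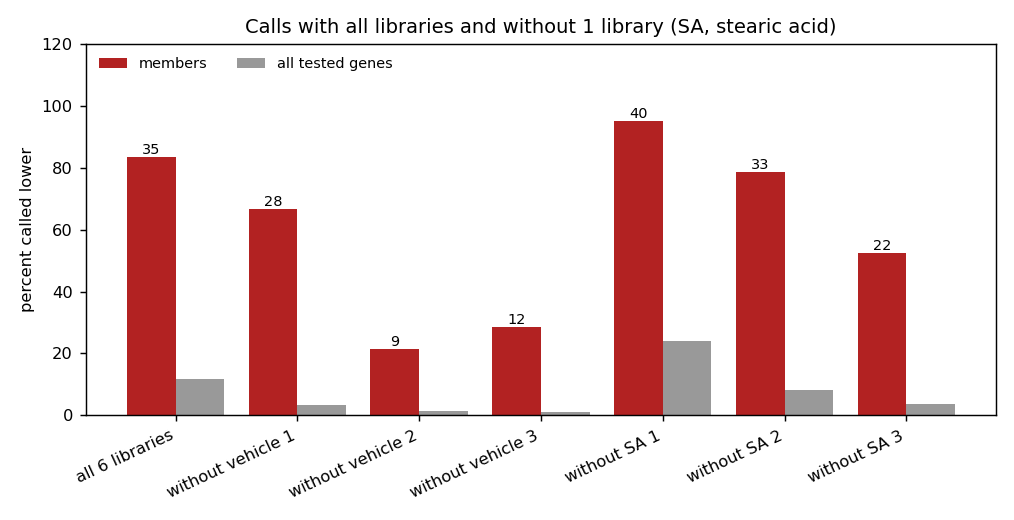
Percent of the 42 members (red, with the number above the bar) and of all 11551 tested genes (grey) called lower in the fit of all 6 libraries and in the 6 fits that left out 1 library (horizontal axis; SA, stearic acid). The members range from 9 without vehicle replicate 2 to 40 without stearic acid replicate 1, and the grey bars are also highest there, at 24.1%, and lowest without vehicle replicates 2 and 3.

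Interferon transcripts themselves were close to absent. Of 21 interferon genes listed, none reached the filter, and 17 were listed at 0 in all 6 libraries. Ifnb1, which encodes interferon β, was at 0.187, 0.0974 and 0.204 TPM in vehicle and at 0.118, 0.141 and 0.0514 TPM with stearic acid, and these ranges overlapped. Ifna4, Ifnk and Ifnz were each above 0 in some libraries and at most 0.132 TPM. Ifnk was above 0 in 2 vehicle libraries and at 0 in the other libraries. These levels were too low to pass the filter and enter the test. In the fit with no filter, no interferon gene passed as lower or as higher.

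Of 9 genes listed for the interferon receptors, Janus kinases and ISGF3, 3 fell and 6 did not pass. Over all tested genes 11.9% fell. The ISGF3 genes Stat2 and Irf9 both fell, Stat2 from 91.04 ± 4.38 to 63.9 ± 10.1 TPM (log2 -0.51) and Irf9 from 88.1 ± 4.31 to 69.9 ± 6.8 TPM (log2 -0.33). Ifngr1, a subunit of the receptor for interferon γ, fell from 299.9 ± 17.4 to 207 ± 42.7 TPM (log2 -0.56). The type I receptor genes Ifnar1 (log2 -0.21, limma adjusted p = 0.081) and Ifnar2 (log2 -0.22, limma adjusted p = 0.087) did not pass. No gene of this list rose, also at an unadjusted p under 0.05, where 5 were lower (limma). None of the 3 falls passed without vehicle replicate 2, without vehicle replicate 3 or without the filter. Without vehicle replicate 1, 1 did, as with stearic acid replicate 3 left out. Without stearic acid replicate 1, 6 genes of the list fell, where 24.1% of all tested genes did.

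Of 18 sensors, adaptors, kinases and IRF factors that act upstream of interferon, 6 fell, 1 rose and 11 did not pass. Over all tested genes 11.9% fell and 12.8% rose. Irf7, the factor that drives interferon α transcription and is itself induced by interferon, averaged 219 ± 7.05 TPM in vehicle and 153 ± 27.9 TPM with stearic acid, a fall of -0.53 on the log2 scale (SE 0.12; limma adjusted p = 0.016). Ticam1, the adaptor of TLR3 and TLR4, averaged 21.95 ± 1.56 TPM in vehicle and 27.4 ± 1.65 TPM with stearic acid, a rise of 0.31 on the log2 scale (SE 0.08; limma adjusted p = 0.027). None of the upstream genes passed as lower with any 1 vehicle library left out, with stearic acid replicate 3 left out or with no filter, and Ticam1 passed in 1 of the 6 fits that left out a library, that without stearic acid replicate 1. Of 14 tested negative regulators of the pathway 2 fell, a share near the 11.9% of all tested genes. They were Trex1, a DNA exonuclease, from 179 ± 3.35 to 130.02 ± 19.8 TPM (log2 -0.47) and Samhd1, a nucleotide hydrolase, from 177 ± 10.3 to 143 ± 14.3 TPM (log2 -0.31). None of these regulators rose (limma; 1 was higher and 5 lower at an unadjusted p under 0.05). Neither fall passed without vehicle replicate 2, vehicle replicate 3, stearic acid replicate 3 or the filter, and 1 of the 2 passed when vehicle replicate 1 was left out, as when stearic acid replicate 2 was.

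Further interferon-stimulated genes outside the list moved the same way. Of 50 tested, 38 fell and none rose, with a median log2 fold change of -0.52, where 11.9% of all tested genes fell. At an unadjusted p under 0.05 there were 43 lower and 0 higher (limma). Phf11b, of the same family as Phf11d, had the smallest p and averaged 38.2 ± 2.38 TPM in vehicle and 22.5 ± 2.77 TPM with stearic acid (log2 -0.74; limma adjusted p = 0.0025). All 13 tested interferon-inducible GTPases fell, with a median of -0.79. Among them Tgtp2 had the smallest p, at 24.3 ± 1.28 TPM in vehicle and 12.3 ± 2.04 TPM with stearic acid (log2 -0.93, limma adjusted p = 0.0019). Both lists were chosen with earlier results of these data known, so these counts are no independent support. The counts of 38 and 13 became 6 and 6 without vehicle replicate 2, 7 and 6 without vehicle replicate 3, and 8 and 8 without the filter. Over all tested genes 1.44%, 1.23% and 1.64% passed as lower in these fits. The 38 also became 19 without vehicle replicate 1 (3.37% over all tested genes) and 20 with stearic acid replicate 3 left out (3.64%).

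Markers of the labelled cell type were abundant: all 8 macrophage markers passed the filter, among them Lyz2, Csf1r and Adgre1. Their summed level was 32508 to 33422 TPM in vehicle and 23111 to 28681 TPM with stearic acid, and 4 of the 8 fell while Cd68 rose. Their part in the falls of the antiviral genes was not tested. Of 8 markers of plasmacytoid dendritic cells, the main source of interferon α, 2 passed the filter. Of these Tcf4 fell (log2 -0.47) and Cox6a2 rose (log2 1.42). The summed list level was 15.4 to 18.6 TPM in vehicle and 15.04 to 16.8 TPM with stearic acid. The defining markers Siglech, Ccr9 and Klk1 were at most 0.196 TPM in any library, and Ly6d was at 0. Conventional dendritic cell markers summed to at most 1.57 TPM with none of 6 past the filter, and neutrophil and progenitor markers to 7.46 to 9.6 TPM in vehicle and 11.5 to 12.4 TPM with stearic acid, with 3 of 11 past it and Retnlg at 0. Lymphoid markers summed to 2.64 to 2.95 TPM in vehicle and 1.28 to 1.796 TPM with stearic acid, with 1 of 9 past the filter and Cd3e, Cd3d, Ncr1, Nkg7 and Trac at 0. Stromal markers summed to 4.01 to 5.94 and 2.38 to 5.07 TPM, with 1 of 8 past it. Apart from the macrophage list, each sum was below the level of most single members.

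The library depth, read from the steps of low RPKM values (reads per kilobase and 1e+06 reads), lay between 58.1 and 80.8 M (M, 1e+06). The steps do not show whether a read or a read pair was counted. At that depth 1 TPM stands for 19.1 to 27.7 reads per kilobase. Pearson's r of log2(TPM + 1) over tested genes was 0.996 to 0.998 for pairs of vehicle libraries, 0.988 to 0.996 for pairs of stearic acid libraries and 0.97 to 0.993 for pairs of unlike treatment.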

How the data were processed

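Polyadenylated RNA of 3 vehicle and 3 stearic acid libraries was analysed. TPM and RPKM per gene are the authors' deposited values, per the file headers. The submitters' processing notes name DRAGEN and the builds GRCm38 and mm10. The gene annotation and the counting rule, strand included, were not given in the sources used here. The members and lists were chosen with earlier results of these data known, and 1 gene of the receptor list is not reported here. Limma 3.58.1 (R 4.3.3) was fitted with an intensity-dependent prior to log2(TPM + 1) of the 11551 genes past the filter on the mean (1 TPM). Treatment was the only term. Tests were two-sided and Benjamini-Hochberg adjusted over all of those genes. The fit was checked on simulated data with independent libraries and the same spread in both groups. That check does not cover the wider spread among the stearic acid libraries seen here. Fold changes on this scale understate the change of low genes, and TPM is a share of the library. Of 36333 gene numbers 35337 matched RefSeq (GRCm38.p6), the source of coordinates and promoter windows; 27 names that had become dates were repaired through gene numbers. Loci of 15 members overlap another RefSeq gene. Depth was the value between 30 and 100 M (M, 1e+06) at which low RPKM values of single-exon genes came nearest to whole reads; 73% to 77.1% were whole within 0.05, so no counts were rebuilt. Members named with all values were, per role group, the 2 with the largest fall among those that passed, and every member that did not pass. From each other list the gene with the smallest p in each direction was named, or all where at most 5 passed. Alternatives were a pseudocount of 0.1, no filter, a filter at 5 TPM, RPKM, 2 other scalings, no intensity trend, the replicate number as a block, and leaving out each library.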

Additional observations from a re-analysis of the deposited data

How the results depend on the processing

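Of the 42 members, each kept the direction of its fold change under every alternative run. Without the filter on low values, which raised the genes tested to 21632, 1027 genes changed in all and 12 members fell; the lists of receptors with ISGF3, upstream factors and negative regulators then had 0 falls, the upstream list 0 rises, and the other interferon-stimulated genes and the GTPases 8 falls each. With RPKM 1 member was higher (Trim25), and the upstream list had 2 rises and the negative regulators 1; with median-of-ratios scaling the same lists had 2 and 1, and with quantile normalization the negative regulators had 5 falls and 1 rise. The cause was not tested. Leaving out 1 library gave 550 to 5010 changed genes, 9 to 40 lower members, and falls of 0 to 6 in the receptor list, 0 to 8 upstream (0 to 2 rises), 0 to 4 among negative regulators, 6 to 42 among other stimulated genes and 6 to 13 among GTPases. Whether the replicate numbers pair the libraries was not settled. Deviations of same-numbered libraries correlated at 0.0703, 0.288 and 0.0387, and those of other pairs across the groups at -0.318 to 0.275. With the replicate block 36 members and 5 genes of the receptor list fell (3638 genes changed in all). With a pseudocount of 0.1, a filter at 5 TPM or no intensity trend 35 members fell. Levels near those of the interferon genes, under 0.21 TPM, rest on few reads.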

Other observations

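Longer members spread more among the stearic acid libraries. Transcript length (the longest GENCODE M21 transcript per gene) and the range over the 3 stearic acid libraries had a Spearman rho of 0.45 across the 42 members and of -0.04 across 10940 tested genes with a length, and length had a rho of -0.08 with the members' log2 fold change. The points share the same libraries, and these values were looked at after the data were seen.

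Cox6a2, a cytochrome oxidase subunit listed here as a plasmacytoid dendritic cell marker, went against the antiviral genes. It was at 0.985, 1.14 and 1.35 TPM in vehicle and at 3.299, 6.33 and 5.11 TPM with stearic acid (log2 1.42, limma adjusted p = 0.0021). Tcf4, the only other marker of that list past the filter, fell (log2 -0.47, limma adjusted p = 0.039). Siglech, a defining marker of those cells, was at most 0.196 TPM.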
